A study of Mus musculus with 6 samples.

Results

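Retinal ganglion cells (RGCs) of the mouse were compared between postnatal day 5 (P5) and embryonic day 18 (E18), across birth and before the eyes open. The comparison rests on 4 of the 6 RNA-seq libraries of the series, the 2 of E18 and the 2 of P5, chosen by their labelled stage. All cells came from wild-type mice of strain C57/6NCrl, with no allele or agent at either age, and were purified by panning on Thy1 after removal of macrophages and, per the sample protocol, amacrine cells. The 2 libraries of the remaining age, from mice 8 weeks old (Adult), entered the fit only to estimate the spread between libraries. The values are FPKM, a measure of fragments that is scaled to transcript length and to the mapped fragments of a library, summed over the isoforms of each gene symbol, and differences are in log2(FPKM + 1). A gene was tested when its mean over the 6 libraries was at least 1 FPKM, which left 14390 of 17027 symbols.

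RGCs are the output neurons of the retina. They are born before birth, send axons through the optic nerve to the thalamus and superior colliculus, and after birth take part in waves of spontaneous activity that refine those connections before vision begins. Over the same days many of them die, their dendrites settle into layers of the inner retina, and glia arrive in the optic nerve. At the cellular level a young neuron of this kind is known to leave its growth program, acquire ion channels and receptors, shift the way it makes ATP, and take on the traits of a subtype. The results are ordered by these steps.

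With limma and Benjamini-Hochberg adjustment at 0.05, 795 genes were higher at P5 (5.52% of those tested) and 712 were lower (4.95%). Rises were 52.8% of the calls, and 76.0% after rescaling to TPM (1479 higher and 468 lower), so the balance of rises and falls depends on the scaling. The median difference over all genes was -0.03. A called rise had a median difference of 0.90 and a called fall of -0.80, and 318 rises and 195 falls were at least 1 on the log2 scale. The groups did not overlap for any called gene, but 29% of all tested genes also had both P5 libraries above both E18 libraries, and 34.2% had both below. With 2 libraries an age the calls lean on every library: 28 genes were called when E18 replicate 1 was left out, 117 when E18 replicate 2 was, 10 for P5 library a and 579 for P5 library b, and leaving out an Adult replicate left 640 or 642. All 1507 differences kept their direction in each of these fits, which follows from groups that do not overlap and is no further support. Of the 143 called genes named in the text, 10, 28, 6 and 84 were called in these fits. Counts of a gene list with 1 library left out are given below in that same order. The lists were chosen with earlier results of these data known, so their shares beside those of all genes are descriptions and not independent support. The isoform sums of the libraries ran from 485423 to 550826 FPKM. FPKM carry no read counts, so depth is unknown. The labels do not tie the paired libraries to different mice or litters, so the p-values speak of variation among libraries, which may be technical.

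The E18 replicates were compared first, because 1 of them differed in the markers of other retinal cells. Across all genes 189 were at least 1 log2 higher in E18 replicate 1 than in replicate 2 (1.31%), and 50 were at least 1 lower (0.347%). Among 25 tested markers of retinal progenitors and neuroblasts, 15 were at least 1 higher in replicate 1 and none was at least 1 lower, with a median difference of 1.26 between the replicates. Sox2, a factor of dividing progenitors, had 24.3 and 0.502 FPKM in replicates 1 and 2, and Ccnd1, which drives entry into the cell cycle, had 40.1 and 3.26 FPKM. Fgf15, a growth factor of retinal progenitors, had 12.2 and 0.508 FPKM. At P5 these 3 genes lay between 0.149 and 2.34 FPKM in both libraries, close to E18 replicate 2. The progenitor list held 640 and 465 FPKM in all in the E18 libraries and 378 and 430 FPKM at P5, of which Pax6, a gene that RGCs are known to keep, had 258 and 241 FPKM at E18 and 216 and 257 FPKM at P5.

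Cell cycle genes followed the same pattern. All 13 that were tested, of 23 on the list, were higher in E18 replicate 1, 6 of them by at least 1. Their median difference was 0.89, and their sum was 158 and 83.8 FPKM at E18 and 60.7 and 67.2 FPKM at P5. Top2a, a topoisomerase of dividing cells, had 14.1 and 0.611 FPKM in replicates 1 and 2, and Cdk1 had 5.40 and 0.482 FPKM. Top2a and Cdk1, and Fgf15 above, reached the mean of 1 FPKM only through E18 replicate 1. The filter thus lets in genes that are high in replicate 1 alone, so these counts and medians lean toward that replicate. Among 17 amacrine markers, 5 were at least 1 higher in replicate 1, among them Tfap2b, an amacrine transcription factor, with 8.74 and 0.277 FPKM, and Gad1, which makes GABA, with 5.97 and 0.180 FPKM. The sum over the amacrine list was 562 and 524 FPKM at E18 and 525 and 572 FPKM at P5. Otx2, found in bipolar cells and photoreceptors, had 5.67 and 0.503 FPKM. Kdr, a receptor of endothelial cells, had 9.41 and 1.83 FPKM, and the hemoglobin gene Hbb-bs had 12.1 and 0.289 FPKM. Hbb-bs too was tested only through its value in replicate 1. Of 16 markers of microglia and macrophages 2, C1qa and Ctss, had values here, at most 0.175 FPKM at E18 and 0.0155 FPKM at P5. RGC markers went the other way: 4 of 24 were higher and 20 were lower in replicate 1, with a median difference of -0.18. Over all genes 8469 of 14390 were lower in replicate 1, with a median difference of -0.04.

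**Figure D1:**
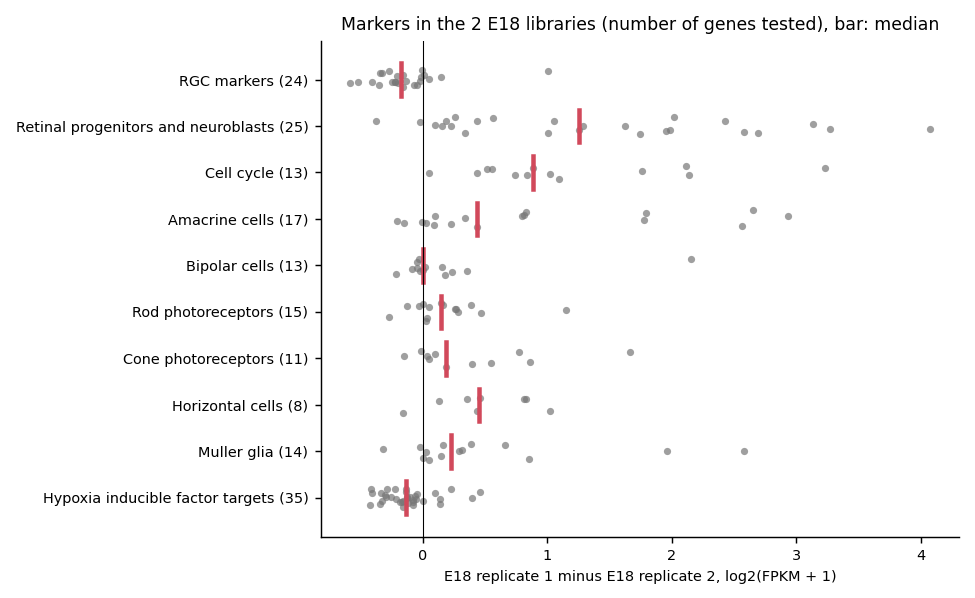
Difference between E18 replicate 1 and E18 replicate 2 in log2(FPKM + 1), for the tested markers of each cell type. Each point is 1 gene and each bar is the median of its list. Most progenitor markers (median 1.26) and all cell cycle genes (0.89) lie above 0, while most RGC markers (-0.18) lie below it. Some genes of these lists passed the filter only through replicate 1.

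These differences bear on any change measured from E18. The progenitor list had a median difference of -0.84 between P5 and E18, which became -0.06 without E18 replicate 1, and the cell cycle list went from -0.61 to -0.08. Only 1 gene of each list was called lower, Cdk4 (120.4 and 105 FPKM at E18 and 64.6 and 63.1 FPKM at P5) and Mcm7 (27.9 and 20.4 FPKM at E18 and 7.84 and 11.3 FPKM at P5), and Dll3, a Notch ligand, was called higher (1.89 and 1.60 FPKM at E18 and 4.62 and 3.78 FPKM at P5). Of the 712 genes called lower at P5, 12 (1.69%) were at least 1 log2 higher in E18 replicate 1 than in replicate 2. The share over all tested genes was 1.31%. A wide gap between replicates also widens the SE, so the share among called genes does not measure what other cells contributed. The lists described below, other than glial markers and histone genes, had median differences between the E18 replicates of -0.30 to 0.17. The median was 0.23 for markers of Muller glia and 0.60 for histone genes. Rises depend on the replicates as well. All 10 tested sodium channel genes were lower in replicate 1. Their median rise was 0.51 without replicate 1 and 0.76 without replicate 2. The median of GABA and glycine genes was 0.49 and 0.80 in these fits, and the difference of Thy1 was 0.65 and 1.24. Subtype markers went the other way, with medians of 1.05 and 0.77. For every called fall both E18 replicates lay above both P5 libraries, as the groups of no called gene overlapped, and this does not measure it either. How far other cells contributed to single genes was not tested, and in bulk RNA fewer cells of a type and less RNA per cell cannot be told apart.

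RGC markers were abundant at both ages. Rbpms, an RNA-binding protein used to count RGCs, had 159 and 175 FPKM at E18 and 177 and 172 FPKM at P5, and Pou4f2, a factor needed for their differentiation, had 74.6 and 78.2 FPKM at E18 and 91.0 and 105 FPKM at P5. The median of 24 tested markers was 107 and 129 FPKM in the E18 libraries and 119 and 128 FPKM at P5. Thy1, the surface protein used for panning, was higher at P5, with 161 and 241 FPKM at E18 and 391 and 369 FPKM at P5 (log2 difference 0.95, SE 0.19, adjusted p = 0.0333). Nefh, the heavy neurofilament protein of large axons, rose from low levels, with 3.19 and 4.05 FPKM at E18 and 11.7 and 8.49 FPKM at P5 (log2 difference 1.25, SE 0.19, adjusted p = 0.0178). Isl1, a factor that acts with Pou4f2 in newborn RGCs, fell, with 238 and 245 FPKM at E18 and 115 and 136 FPKM at P5 (log2 difference -0.94, SE 0.11, adjusted p = 0.0113). Slc17a6, the vesicular glutamate transporter of RGCs, had 68.5 and 86.1 FPKM at E18 and 186 and 133 FPKM at P5; its P5 libraries lay above those of E18 but the difference did not pass the test (log2 difference 1.03, SE 0.39, adjusted p = 0.142).

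Some of the genes that answer to low oxygen fell, and none rose. HIF transcription factors, stabilized when oxygen is low, switch on glucose uptake, glycolysis, lactate export and growth of vessels. Of 35 tested HIF targets 15 fell and none rose, against 4.95% and 5.52% of all genes. Their median difference was -0.63 against -0.03 for all genes. This list too was chosen with earlier results of these data known, so the contrast is a description. With 1 library left out the falls numbered 2, 4, 1 and 11, and the median lay between -0.71 and -0.58. Slc16a3, the lactate exporter MCT4 (on GRCm38, the build mm10 of the files, chromosome 11, 120948480 to 120960868), had 61.5 and 78.2 FPKM at E18 and 9.38 and 6.62 FPKM at P5, 8.73-fold lower by the ratio of means (log2 difference -2.98, SE 0.18, adjusted p = 0.00391). No gene listed above 0 at P5 fell further among those eligible for naming. Vegfa, the growth factor of retinal vessels (chromosome 17, 46016993 to 46032369), had 62.4 and 73.1 FPKM at E18 and 18.4 and 18.5 FPKM at P5 (log2 difference -1.82, SE 0.13, adjusted p = 0.00453). Slc2a1, the glucose transporter GLUT1, had 19.7 and 14.7 FPKM at E18 and 3.55 and 2.90 FPKM at P5 (log2 difference -2.10, SE 0.17, adjusted p = 0.00549).

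In Slc16a3, Vegfa and Slc2a1 the lower E18 library was several times above the higher P5 library. Pdk1, the kinase that keeps pyruvate out of mitochondria, fell as well, with 35.6 and 41.5 FPKM at E18 and 19.3 and 18.2 FPKM at P5 (log2 difference -1.0, SE 0.12, adjusted p = 0.0112). The machinery that senses oxygen moved less: of 13 tested components only the prolyl hydroxylase Egln1, which is itself a HIF target, was called (34.9 and 31.7 FPKM at E18 and 19.6 and 23.9 FPKM at P5), and none was with 1 library left out. Hif1a, the oxygen-regulated subunit, had 135 and 152 FPKM at E18 and 115 and 133 FPKM at P5 (log2 difference -0.21, SE 0.13, adjusted p = 0.342); its mRNA level does not report the amount of protein. Of the HIF targets that were not called, Slc2a3, the neuronal glucose transporter, had 50.1 and 67.0 FPKM at E18 and 64.8 and 66.0 FPKM at P5 with overlapping groups.

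The letters ACGTG are a core form of the HIF binding site, and other forms were not searched. The promoters of 3 of these falling genes that carry ACGTG are shown to place it. They run from 250 bases before to 50 bases after a RefSeq gene start (GRCm38.p6), are written 5′ to 3′ on the strand of the gene, and carry ACGTG or its reverse complement CACGT in capitals; matches may overlap.
Slc16a3, chr11:120948817-120949116, plus strand: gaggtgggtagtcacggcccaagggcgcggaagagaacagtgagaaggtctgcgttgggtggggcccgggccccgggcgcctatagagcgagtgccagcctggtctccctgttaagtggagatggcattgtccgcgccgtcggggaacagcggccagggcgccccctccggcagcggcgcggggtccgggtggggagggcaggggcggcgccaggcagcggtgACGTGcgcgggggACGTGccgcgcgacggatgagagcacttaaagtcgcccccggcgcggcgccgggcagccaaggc
Slc2a1, chr4:119108495-119108794, plus strand: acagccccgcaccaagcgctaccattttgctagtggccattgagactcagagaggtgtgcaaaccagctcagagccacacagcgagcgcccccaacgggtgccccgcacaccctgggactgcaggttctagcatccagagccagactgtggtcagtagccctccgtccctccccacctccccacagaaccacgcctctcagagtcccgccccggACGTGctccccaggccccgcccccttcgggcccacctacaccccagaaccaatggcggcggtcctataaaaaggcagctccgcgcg
Ldha, chr7:46845554-46845853, plus strand: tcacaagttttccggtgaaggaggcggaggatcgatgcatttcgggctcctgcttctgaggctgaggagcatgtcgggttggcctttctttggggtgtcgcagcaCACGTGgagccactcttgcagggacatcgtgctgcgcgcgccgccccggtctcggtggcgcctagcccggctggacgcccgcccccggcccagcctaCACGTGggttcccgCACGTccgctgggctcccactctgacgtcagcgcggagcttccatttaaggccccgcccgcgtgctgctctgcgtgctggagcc
The letters stood 27 and 14 bases before the start of Slc16a3, 36 bases before that of Slc2a1, and at 5 overlapping or separate places in the Ldha window. Among the tested HIF targets with a promoter in the table, 21 of 30 (70.0%) had the letters in at least 1 promoter, against 29.8% of the 8999 tested genes with a promoter there. The share was 10 of 15 among the targets that fell and 11 of 15 among the others. Vegfa had the letters in its second promoter only and Pfkl had none in its own; a match is a run of letters and not a measured binding site.

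Some glycolytic genes fell, and some genes for the use of pyruvate in mitochondria rose. Of 22 tested glycolytic genes 10 fell and 1 rose (median difference -0.50; with 1 library left out 1, 3, 1 and 7 fell). Of the 10, 8 are HIF targets counted above, and the others are Pkm and, named after its values were seen, Gpi1 (261 and 275 FPKM at E18 and 193 and 164 FPKM at P5). Pfkl, the liver-type phosphofructokinase that sets the pace of the pathway, had 86.7 and 94.2 FPKM at E18 and 34.6 and 30.6 FPKM at P5 (log2 difference -1.45, SE 0.11, adjusted p = 0.00508). Eno1, the widely expressed enolase, had 354 and 331 FPKM at E18 and 158 and 139 FPKM at P5 (log2 difference -1.20, SE 0.11, adjusted p = 0.00751). The neuronal enolase Eno2 moved the other way, with 45.5 and 47.2 FPKM at E18 and 126 and 94.9 FPKM at P5 (log2 difference 1.22, SE 0.14, adjusted p = 0.011). Eno1 was above Eno2 in every E18 library by FPKM, which is per length, and the same order held in both P5 libraries with a smaller gap.

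Ldha, which makes lactate from pyruvate, had 380.3 and 418 FPKM at E18 and 199.5 and 139 FPKM at P5 (log2 difference -1.26, SE 0.18, adjusted p = 0.0167). Pkm, pyruvate kinase, had 567 and 561 FPKM at E18 and 311 and 301 FPKM at P5 (log2 difference -0.88, SE 0.12, adjusted p = 0.0155). Its 2 main isoforms were at similar levels. The one of 2041 bases fell, with 240.3 and 236 FPKM at E18 and 132 and 129 FPKM at P5 (adjusted p = 0.0380 among isoforms). The one of 2432 bases, with 275 and 222 FPKM at E18 and 130.2 and 128 FPKM at P5, missed the threshold (adjusted p = 0.0523). Each held between 39.6% and 48.6% of the gene's FPKM in every library. Ldhb, whose subunit favors the use of lactate, had 93.2 and 83.0 FPKM at E18 and 114 and 103 FPKM at P5 (log2 difference 0.30, SE 0.11, adjusted p = 0.138). Aldoa, the most abundant aldolase, had 412 and 462 FPKM at E18 and 407 and 308 FPKM at P5 and did not pass the test.

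Of 23 tested genes of pyruvate entry and the tricarboxylic acid cycle 7 rose and none fell (median difference 0.23; 0, 0, 0 and 4 rose with 1 library left out). Mpc1, a subunit of the mitochondrial pyruvate carrier, had 39.0 and 41.3 FPKM at E18 and 78.2 and 67.8 FPKM at P5 (log2 difference 0.84, SE 0.11, adjusted p = 0.0142). Dlat and Pdha1, subunits of pyruvate dehydrogenase, differed by 0.86 and 0.63. Idh3a, of the NAD-dependent isocitrate dehydrogenase, had 32.3 and 34.5 FPKM at E18 and 73.0 and 58.3 FPKM at P5 (log2 difference 0.95, SE 0.13, adjusted p = 0.0154). Cs, citrate synthase, had 118 and 129 FPKM at E18 and 168 and 161 FPKM at P5 (log2 difference 0.41, SE 0.09, adjusted p = 0.0441). In each of these genes the lower P5 library lay above the higher E18 library. Genes of mitochondrial number and shape moved little, with 1 of 21 called (0, 0, 0 and 1 with 1 library left out), the nuclear receptor Esrrg (4.55 and 3.93 FPKM at E18 and 10.3 and 7.39 FPKM at P5).

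**Figure D2:**
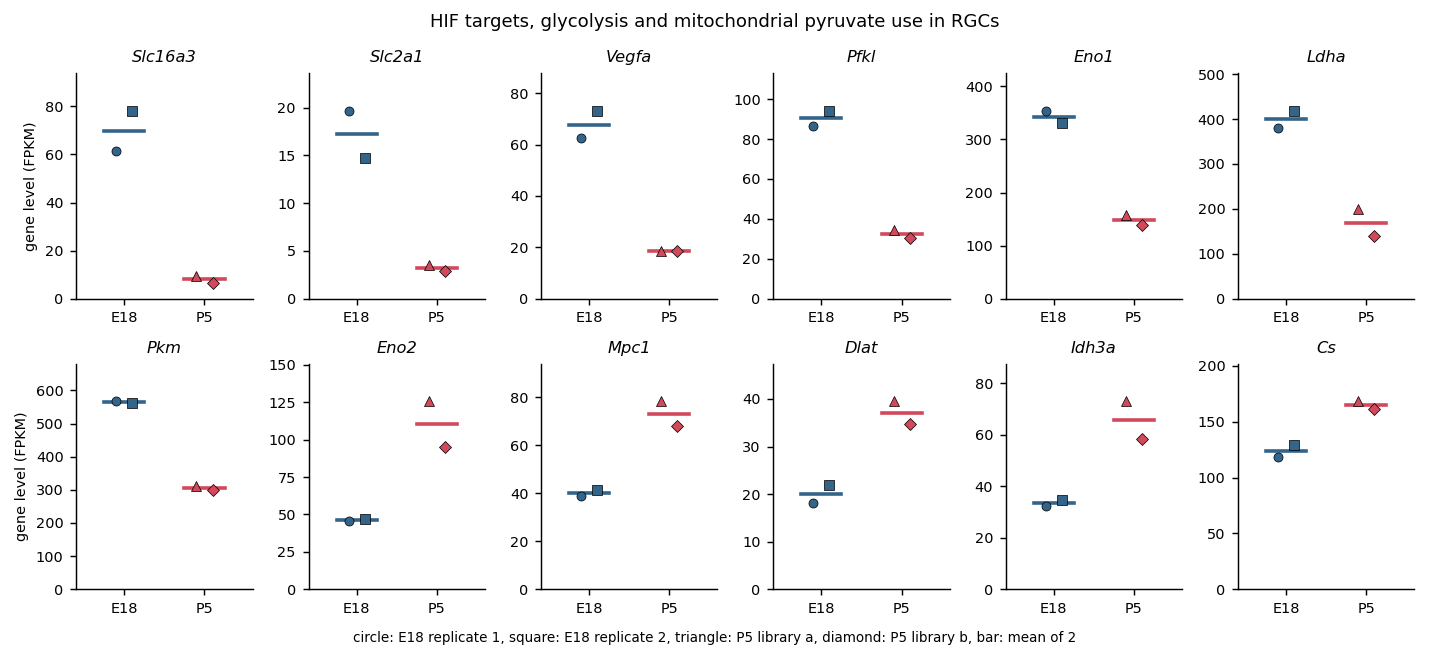
FPKM in the 2 E18 libraries and the 2 P5 libraries for 12 genes of HIF signaling, glycolysis and mitochondrial pyruvate use; each panel has its own linear axis from 0, points are libraries and bars are means of the 2. The 6 genes of the upper row and Pkm fell at P5, and Eno2, Mpc1, Dlat, Idh3a and Cs rose.

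Some genes of cholesterol synthesis fell, with a spread between the P5 libraries. Of 22 tested genes 7 fell (median difference -0.84; 0, 0, 0 and 0 with 1 library left out), among them Srebf2, the factor that switches on the pathway, with 57.5 and 62.8 FPKM at E18 and 39.0 and 36.0 FPKM at P5 (log2 difference -0.67, SE 0.14, adjusted p = 0.0346). Hmgcs1, an early enzyme of the pathway and one of the most abundant mRNAs here, had 797 and 972 FPKM at E18 and 512 and 305 FPKM at P5 (log2 difference -1.15, SE 0.27, adjusted p = 0.0475). P5 library b was the lower of the P5 libraries, by a median of 0.67 over the list.

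Several genes of young neurons fell. SoxC factors (Sox4, Sox11 and Sox12) act in newly born neurons and are needed for RGC formation. Of 21 tested genes in this list 10 fell and none rose (median difference -0.44; 0, 0, 0 and 6 fell with 1 library left out). Sox11 had 125 and 128 FPKM at E18 and 32.7 and 41.8 FPKM at P5 (log2 difference -1.74, SE 0.15, adjusted p = 0.00682). Sox4 had 287 and 305 FPKM at E18 and 126 and 168 FPKM at P5 (log2 difference -1.02, SE 0.16, adjusted p = 0.0202). Sox12 had 14.8 and 14.2 FPKM at E18 and 5.19 and 7.73 FPKM at P5 (log2 difference -1.07, SE 0.18, adjusted p = 0.0235). In each of the 3 the E18 libraries were close to each other and well above P5. Igfbpl1, a marker of young neurons, had 43.3 and 46.3 FPKM at E18 and 10.2 and 13.6 FPKM at P5 (log2 difference -1.84, SE 0.18, adjusted p = 0.00838). Cd24a, a surface protein of young neurons, had 859.9 and 1041 FPKM at E18 and 418 and 447 FPKM at P5 (log2 difference -1.13, SE 0.13, adjusted p = 0.0102). Dcx, a microtubule protein of migrating neurons, had 80.9 and 83.6 FPKM at E18 and 47.1 and 56.6 FPKM at P5 and missed the threshold (log2 difference -0.66, SE 0.23, adjusted p = 0.122).

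Cdkn1c, the imprinted cell cycle inhibitor p57 (chromosome 7, 143458339 to 143461050), had 43.2 and 42.5 FPKM at E18 and 4.79 and 5.81 FPKM at P5, 8.08-fold lower (log2 difference -2.80, SE 0.13, adjusted p = 0.00201). Both E18 libraries held it at nearly the same level. Of 11 tested embryonic timing genes of the Lin28 and let-7 axis 1 was called (0, 0, 0 and 1 with 1 library left out). It was Igf2bp3, an embryonic RNA-binding protein, which had 12.6 and 13.0 FPKM at E18 and 2.74 and 4.62 FPKM at P5 (log2 difference -1.59, SE 0.21, adjusted p = 0.0137). Of 24 tested subunits of the BAF chromatin remodeler 5 fell and 1 rose (0, 0, 0 and 4 fell with 1 library left out). The share that fell was 20.8% and the share that rose 4.17%, against 4.95% and 5.52% of all genes. The 2 alternative ATPases moved in opposite directions. Smarca4 had 90.0 and 89.2 FPKM at E18 and 50.1 and 49.0 FPKM at P5 (log2 difference -0.84, SE 0.09, adjusted p = 0.00958). Smarca2 had 24.6 and 24.1 FPKM at E18 and 46.9 and 37.1 FPKM at P5 (log2 difference 0.75, SE 0.13, adjusted p = 0.0255). Of 31 tested genes of DNA methylation and chromatin reading 7 fell and 1 rose (0, 1, 0 and 2 fell with 1 library left out). The rise was that of Dnmt3a, which methylates new sites in neuronal DNA, with 15.7 and 17.5 FPKM at E18 and 27.6 and 27.5 FPKM at P5 (log2 difference 0.70, SE 0.11, adjusted p = 0.0198). Ezh2, which silences genes by histone methylation, fell, with 18.4 and 16.9 FPKM at E18 and 8.19 and 9.67 FPKM at P5 (log2 difference -0.91, SE 0.15, adjusted p = 0.0212).

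Among the tested splicing regulators 13.8% fell and 3.45% rose, against 4.95% and 5.52% of all genes. Ptbp1, which blocks neuronal exons in progenitors, had 31.7 and 23.2 FPKM at E18 and 10.4 and 13.0 FPKM at P5 (log2 difference -1.15, SE 0.18, adjusted p = 0.02), with the higher E18 value in replicate 1. Celf3, a neuronal regulator, had 54.9 and 56.2 FPKM at E18 and 27.6 and 23.5 FPKM at P5 (log2 difference -1.09, SE 0.11, adjusted p = 0.00958). Mbnl2, which promotes the adult form of many exons, had 12.7 and 12.8 FPKM at E18 and 26.7 and 26.9 FPKM at P5 (log2 difference 1.01, SE 0.15, adjusted p = 0.019). Of 29 tested genes of this list 4 fell and 1 rose (0, 0, 0 and 1 fell with 1 library left out).

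Many markers of RGC subtypes rose. Mature RGCs fall into many types that differ in dendrites, targets and responses to light, and adult types are told apart by genes such as those listed here. Of 28 tested markers 12 rose and 1 fell (median difference 0.90; 1, 2, 0 and 3 rose with 1 library left out). Neurod2, a transcription factor of some types, had 0.559 and 0.384 FPKM at E18 and 7.15 and 9.55 FPKM at P5 (log2 difference 2.66, SE 0.18, adjusted p = 0.00446). Trhr, the receptor for thyrotropin-releasing hormone in a direction-selective type, was under 0.01 FPKM in both E18 libraries and had 4.58 and 3.51 FPKM at P5 (log2 difference 2.33, SE 0.21, adjusted p = 0.00716). Trhr reached the mean of 1 FPKM only through P5, which favors a rise. With the filter lowered to a mean of 0.01 FPKM 12 of 30 markers rose. Tac1, a tachykinin precursor, had 14.5 and 11.1 FPKM at E18 and 57.6 and 43.8 FPKM at P5 (log2 difference 1.90, SE 0.19, adjusted p = 0.00927).

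Opn4, melanopsin, the light-sensing pigment of intrinsically photosensitive RGCs, had 4.57 and 2.94 FPKM at E18 and 11.7 and 8.40 FPKM at P5 (log2 difference 1.22, SE 0.24, adjusted p = 0.0317). Eomes, a factor these cells depend on, had 6.06 and 2.65 FPKM at E18 and 15.5 and 15.3 FPKM at P5 (log2 difference 1.69, SE 0.30, adjusted p = 0.0251), with the higher E18 value in replicate 1. Col25a1 had 1.61 and 1.55 FPKM at E18 and 4.15 and 4.11 FPKM at P5 (log2 difference 0.99, SE 0.16, adjusted p = 0.02). Cdh6 had 5.26 and 3.74 FPKM at E18 and 12.8 and 11.1 FPKM at P5 (log2 difference 1.25, SE 0.19, adjusted p = 0.0194). Cartpt, a peptide of ON-OFF direction-selective cells, had 10.6 and 17.7 FPKM at E18 and 50.2 and 29.0 FPKM at P5 (log2 difference 1.41, SE 0.33, adjusted p = 0.0457). The transcription factor Foxp2, of other types, had 12.6 and 13.3 FPKM at E18 and 13.0 and 9.47 FPKM at P5, with overlapping groups. Bnc2, named after its values were seen, was the 1 marker of the list that fell, with 14 and 21.1 FPKM at E18 and 9.16 and 6.72 FPKM at P5. A sum over all RGCs does not tell whether more cells or more RNA per cell carried a marker.

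**Figure D3:**
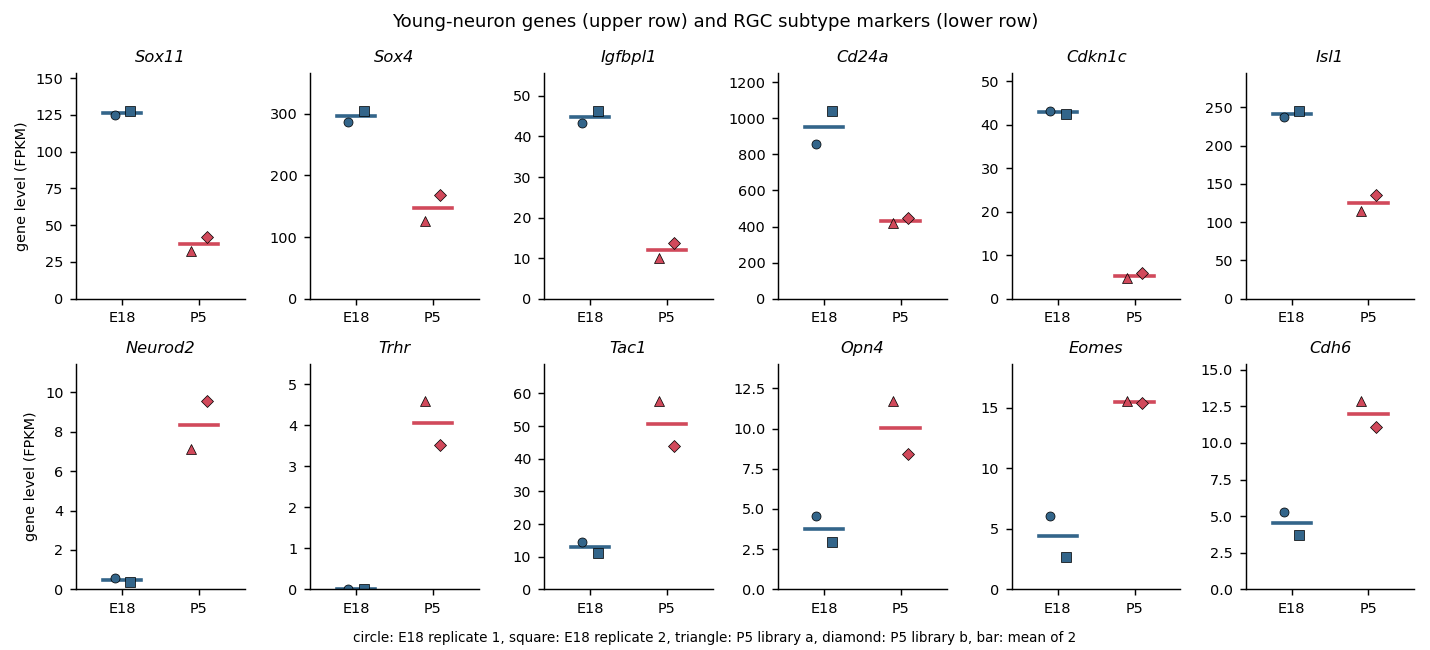
FPKM in the 2 E18 libraries and the 2 P5 libraries for 6 genes of young neurons and early development (upper row) and 6 subtype markers (lower row), each panel on its own linear axis from 0, with points for libraries and bars for the mean of 2. Every gene of the upper row is lower in both P5 libraries, and every gene of the lower row is higher.

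Some sodium channel genes rose. Voltage-gated sodium channels cluster at the axon initial segment and start the spike. Of 10 tested sodium channel genes 5 rose and none fell (median difference 0.64; 0, 1, 0 and 3 rose with 1 library left out). Scn1a, a pore-forming subunit of maturing neurons, had 6.76 and 8.45 FPKM at E18 and 26.7 and 28.1 FPKM at P5 (log2 difference 1.73, SE 0.15, adjusted p = 0.00641). Scn2a1, the early subunit of unmyelinated axons, had 32.4 and 38.3 FPKM at E18 and 69.5 and 52.8 FPKM at P5 (log2 difference 0.76, SE 0.16, adjusted p = 0.0347). Scn1a thus rose from a lower level than Scn2a1 and remained below it at P5. Scn8a, which replaces Scn2a1 at mature nodes, had 7.20 and 7.42 FPKM at E18 and 9.65 and 10.9 FPKM at P5 and did not pass the test (log2 difference 0.44, SE 0.17, adjusted p = 0.147). The leak channel Nalcn, which sets the resting potential, had 7.79 and 8.94 FPKM at E18 and 23.0 and 18.6 FPKM at P5 (log2 difference 1.21, SE 0.17, adjusted p = 0.0149).

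At the axon initial segment and node 11 of 29 tested genes rose and 1 fell (0, 2, 0 and 5 rose with 1 library left out), and the list shares its sodium channels with the one above. Cntn1, an adhesion protein of the paranode, had 38.3 and 48.5 FPKM at E18 and 191 and 144 FPKM at P5 (log2 difference 1.92, SE 0.18, adjusted p = 0.00751). Lgi1, a secreted partner of Kv1 channels, had 2.05 and 3.09 FPKM at E18 and 10.9 and 7.88 FPKM at P5 (log2 difference 1.54, SE 0.25, adjusted p = 0.0212). Kcna1 and Kcna2, the Kv1 channels of the axon, differed by 1.11 and 1.07 from E18 means of 1.01 and 4.36 FPKM. Ank3, ankyrin G, the scaffold that builds the segment, was the 1 gene of the list that fell, with 73.0 and 70.1 FPKM at E18 and 52.9 and 52.6 FPKM at P5 (log2 difference -0.43, SE 0.09, adjusted p = 0.0358).

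Potassium and calcium channels changed one by one. Among 32 voltage-gated potassium channel genes 4 rose and 1 fell (0, 1, 0 and 2 rose with 1 library left out), and with TPM 12 rose. Kcnip4, a partner of the A-type channel, had 4.18 and 4.54 FPKM at E18 and 25.8 and 21.9 FPKM at P5 (log2 difference 2.21, SE 0.16, adjusted p = 0.00499). Its relative Kcnip1 had 16.9 and 21.9 FPKM at E18 and 56.5 and 52.7 FPKM at P5 (log2 difference 1.46, SE 0.20, adjusted p = 0.0147). Kcnf1, a silent subunit, fell, with 7.58 and 8.30 FPKM at E18 and 2.62 and 2.49 FPKM at P5 (log2 difference -1.33, SE 0.16, adjusted p = 0.0111). In a separate list of calcium-activated, inward and two-pore potassium channels, which includes Kcnk9 and Hcn2, 4 of 19 tested genes rose and none fell. The share that rose was 21.1%, against 5.52% of all genes. Kcnk9, a leak channel, came up from near 0, with 0.226 and 0.187 FPKM at E18 and 3.81 and 3.39 FPKM at P5 (log2 difference 1.93, SE 0.23, adjusted p = 0.0113). Hcn2, a pacemaker channel, had 3.0 and 3.08 FPKM at E18 and 7.48 and 8.25 FPKM at P5 (log2 difference 1.13, SE 0.12, adjusted p = 0.00964).

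Of 20 tested calcium channel genes 3 rose and 2 fell (0, 0, 0 and 1 rose with 1 library left out). Cacna1g and Cacna1h both encode T-type channels that open near rest; Cacna1g rose, with 4.88 and 5.39 FPKM at E18 and 14.3 and 14.6 FPKM at P5 (log2 difference 1.33, SE 0.16, adjusted p = 0.0115), and Cacna1h fell, with 20.2 and 20.0 FPKM at E18 and 10.1 and 13.8 FPKM at P5 (log2 difference -0.72, SE 0.17, adjusted p = 0.0477). The beta subunits divided in the same way, Cacnb2 with 0.937 and 0.894 FPKM at E18 and 5.53 and 5.11 FPKM at P5 (log2 difference 1.72, SE 0.19, adjusted p = 0.00989) and Cacnb3 with 119 and 131 FPKM at E18 and 88.8 and 83.5 FPKM at P5 (log2 difference -0.53, SE 0.10, adjusted p = 0.0283). At P5 Cacnb3 nevertheless remained far above Cacnb2 in FPKM. Of the calcium channel list 15% rose and 10% fell, against 5.52% and 4.95% of all genes.

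Pumps and calcium buffers, which restore ion gradients and calcium levels after spikes, rose in part. Of 28 tested genes 14 rose and none fell (median difference 0.57; 0, 3, 0 and 7 rose with 1 library left out). Atp1b1, a subunit of the sodium pump, had 46.7 and 52.4 FPKM at E18 and 213 and 159 FPKM at P5 (log2 difference 1.87, SE 0.16, adjusted p = 0.00641). Slc24a2, a sodium and calcium exchanger, had 1.84 and 1.55 FPKM at E18 and 8.20 and 6.48 FPKM at P5 (log2 difference 1.62, SE 0.16, adjusted p = 0.00907), and the calcium sensor Hpca had 104 and 127 FPKM at E18 and 268 and 263 FPKM at P5 (log2 difference 1.20, SE 0.13, adjusted p = 0.00958). Calm2, a calmodulin gene, had 1041 and 1257 FPKM at E18 and 1714 and 1586 FPKM at P5 (log2 difference 0.53, SE 0.12, adjusted p = 0.048).

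Some genes that act in retinal waves rose. Before eye opening, waves are carried first by gap junctions and then by acetylcholine from starburst amacrine cells acting on nicotinic receptors. Of 18 tested genes 8 rose and none fell (0, 1, 0 and 3 rose with 1 library left out). Lynx1, a membrane-tethered brake on nicotinic receptors, had 2.27 and 2.47 FPKM at E18 and 35.8 and 21.6 FPKM at P5, 12.1-fold higher (log2 difference 3.10, SE 0.24, adjusted p = 0.00535). Lypd6, a relative of Lynx1, had 16.8 and 16.2 FPKM at E18 and 36.8 and 35.5 FPKM at P5 (log2 difference 1.08, SE 0.17, adjusted p = 0.019). Adora1, the inhibitory adenosine receptor, had 1.94 and 2.28 FPKM at E18 and 11.6 and 8.48 FPKM at P5 (log2 difference 1.82, SE 0.18, adjusted p = 0.00838).

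Among the nicotinic subunits themselves, Chrna6 had 75.2 and 98 FPKM at E18 and 229.8 and 155 FPKM at P5 (log2 difference 1.13, SE 0.24, adjusted p = 0.0374). Chrna3 and Chrnb2, subunits of the receptor that drives the waves, did not pass the test. Chrna3 had 21.1 and 20.6 FPKM at E18 and 25.9 and 21.9 FPKM at P5. Chrnb2 had 39.5 and 45.9 FPKM at E18 and 43.2 and 46.4 FPKM at P5, with overlapping groups. Gjd2, connexin 36 of neuronal gap junctions, had 28.3 and 33.8 FPKM at E18 and 75.2 and 53.2 FPKM at P5 (log2 difference 1.01, SE 0.20, adjusted p = 0.0318).

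Some genes of inhibitory signaling rose. Of 24 genes of GABA and glycine signaling 9 rose and none fell (median difference 0.66; 1, 2, 0 and 7 rose with 1 library left out). Gabrg1, a gamma subunit, had 1.01 and 1.12 FPKM at E18 and 11.2 and 11.8 FPKM at P5, 10.8-fold higher (log2 difference 2.59, SE 0.15, adjusted p = 0.00347). Glrb, which anchors glycine receptors at synapses, had 8.60 and 11.1 FPKM at E18 and 61.7 and 35.9 FPKM at P5 (log2 difference 2.16, SE 0.26, adjusted p = 0.0112). Gabra2 had 19.3 and 20.7 FPKM at E18 and 44.7 and 33.0 FPKM at P5 (log2 difference 0.91, SE 0.19, adjusted p = 0.0361). Gabra5 had 4.38 and 4.77 FPKM at E18 and 14.3 and 12.6 FPKM at P5 (log2 difference 1.37, SE 0.17, adjusted p = 0.0113). In none of these genes did the groups overlap.

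The chloride transporters set the sign of the GABA response. Slc12a5 (KCC2), which lowers chloride in mature neurons, had 16.6 and 20.0 FPKM at E18 and 53.9 and 40.2 FPKM at P5 (log2 difference 1.31, SE 0.17, adjusted p = 0.0136), and Slc12a2 (NKCC1), which raises it in young neurons, had 7.62 and 7.70 FPKM at E18 and 7.34 and 9.95 FPKM at P5 with overlapping groups (log2 difference 0.14, SE 0.18, adjusted p = 0.643). At E18 Slc12a5 was already above Slc12a2 in both libraries. Among 18 glutamate receptor genes 4 rose and 1 fell (0, 0, 0 and 0 rose with 1 library left out). Grin1, the shared subunit of NMDA receptors, had 10.4 and 12.9 FPKM at E18 and 20.9 and 18 FPKM at P5 (log2 difference 0.70, SE 0.14, adjusted p = 0.0336). The kainate receptor subunits Grik3 and Grik1 rose (by 1.07 and 0.97) and Grik2 fell, with 14.5 and 16.5 FPKM at E18 and 7.39 and 9.09 FPKM at P5 (log2 difference -0.84, SE 0.15, adjusted p = 0.0275).

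**Figure D4:**
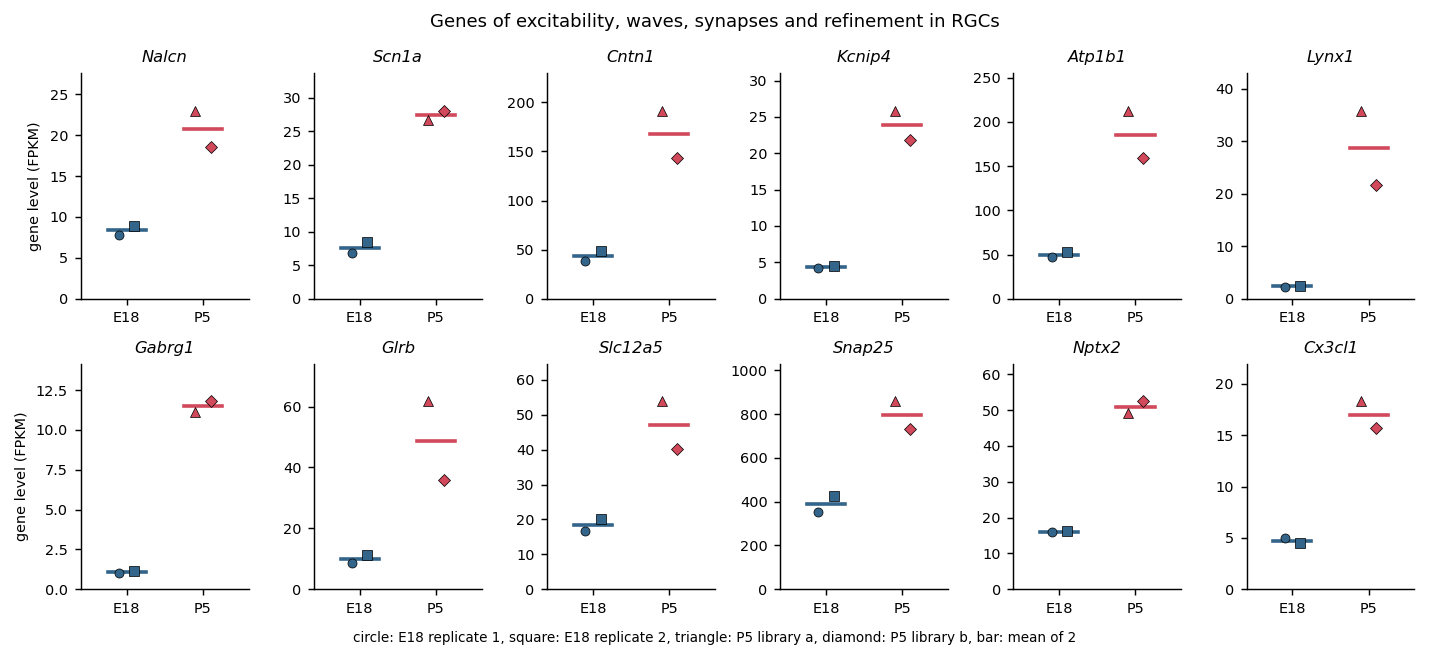
FPKM in the 2 E18 libraries and the 2 P5 libraries for 12 genes of spikes, ion gradients, waves, inhibition and refinement, each panel on its own linear axis from 0, with points for libraries and bars for the mean of 2. All 12 genes are higher in both P5 libraries. All but Scn1a, Gabrg1 and Nptx2 are higher in library a than in library b.

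Some genes of the release machinery rose. Of 36 tested genes 9 rose and none fell (median difference 0.25; 0, 0, 0 and 4 rose with 1 library left out). Snap25, a SNARE protein of vesicle fusion, had 353 and 428 FPKM at E18 and 859 and 732 FPKM at P5 (log2 difference 1.03, SE 0.14, adjusted p = 0.0136). Its 2 main isoforms kept their order. The most abundant held 71.5% and 75.9% of the gene's FPKM at E18 and 77.3% and 78.5% at P5. The next held 27.8% and 23.6% of the gene's FPKM at E18 and 22.6% and 21.3% at P5. Nsf, the ATPase that takes SNARE complexes apart, had 32.4 and 36.1 FPKM at E18 and 89.4 and 72.5 FPKM at P5 (log2 difference 1.21, SE 0.13, adjusted p = 0.00958), and the vesicle protein Syp had 89.8 and 97.2 FPKM at E18 and 169 and 159 FPKM at P5 (log2 difference 0.81, SE 0.10, adjusted p = 0.0112). Among 37 genes of synaptic adhesion and scaffolds 4 rose (0, 0, 0 and 1 with 1 library left out), among them Dlg2, the scaffold PSD-93, with 48.7 and 38.7 FPKM at E18 and 122 and 89.0 FPKM at P5 (log2 difference 1.24, SE 0.19, adjusted p = 0.0186).

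Genes known for refinement of retinal axons in the thalamus rose in part. Of 19 tested genes 8 rose and 1 fell (median difference 0.44; 0, 1, 0 and 2 rose with 1 library left out). Nptx2, a neuronal pentraxin that gathers glutamate receptors, had 16.1 and 16.1 FPKM at E18 and 49.3 and 52.5 FPKM at P5 (log2 difference 1.60, SE 0.17, adjusted p = 0.00957). Its receptor Nptxr had 27.7 and 30.8 FPKM at E18 and 53.4 and 66.3 FPKM at P5 (log2 difference 1.0, SE 0.15, adjusted p = 0.019). H2-D1, a class I MHC gene, had 17.0 and 21.2 FPKM at E18 and 34.5 and 33.7 FPKM at P5 (log2 difference 0.81, SE 0.13, adjusted p = 0.0208). Tap1, which loads peptide onto such molecules, had 0.193 and 0.237 FPKM at E18 and 1.96 and 1.95 FPKM at P5 (log2 difference 1.28, SE 0.20, adjusted p = 0.0196). Tap1 reached the mean of 1 FPKM only through its P5 values, which favors a rise. Cx3cl1, the chemokine by which neurons signal to microglia, had 4.98 and 4.49 FPKM at E18 and 18.3 and 15.7 FPKM at P5 (log2 difference 1.65, SE 0.13, adjusted p = 0.00558). MHC genes are a family of near copies, so reads of H2-D1 may be shared with its relatives.

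Guidance receptors of the axon moved in both directions, with 17.1% lower and 8.57% higher, against 4.95% and 5.52% of all genes. Of 35 tested guidance receptors 6 fell and 3 rose (0, 0, 0 and 1 fell with 1 library left out, and 4 fell with TPM). Dcc, the netrin receptor that brings axons into the optic nerve, had 9.65 and 8.32 FPKM at E18 and 5.02 and 5.07 FPKM at P5 (log2 difference -0.72, SE 0.13, adjusted p = 0.0286). Ephb2, of topographic mapping, had 32.0 and 30.7 FPKM at E18 and 18.7 and 21 FPKM at P5 (log2 difference -0.64, SE 0.13, adjusted p = 0.0335). Nrp2, a semaphorin receptor, rose, with 12.4 and 13.6 FPKM at E18 and 24.0 and 23.5 FPKM at P5 (log2 difference 0.82, SE 0.12, adjusted p = 0.0165). Of 28 ligands only Draxin, which binds Dcc, was called (0, 0, 0 and 1 with 1 library left out), with 17.1 and 18.5 FPKM at E18 and 6.02 and 6.15 FPKM at P5 (log2 difference -1.40, SE 0.14, adjusted p = 0.00838). Gap43, the growth cone protein, had 1322 and 1529.5 FPKM at E18 and 1108 and 1026 FPKM at P5; both P5 libraries lay below E18 but the test was not passed (log2 difference -0.42, SE 0.11, adjusted p = 0.0659).

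Of 24 tubulins and microtubule proteins 5 rose and 2 fell (1, 1, 1 and 4 rose with 1 library left out). Tuba4a, a tubulin of mature neurons, had 5.75 and 6.24 FPKM at E18 and 38.4 and 33.1 FPKM at P5, 5.96-fold higher (log2 difference 2.39, SE 0.12, adjusted p = 0.00201), while Tuba1a, the main alpha tubulin, had 3951 and 4535 FPKM at E18 and 3654 and 3369 FPKM at P5 (log2 difference -0.27, SE 0.14, adjusted p = 0.241). Tubb5 fell, with 1737 and 1940.5 FPKM at E18 and 1232 and 1336 FPKM at P5 (log2 difference -0.52, SE 0.11, adjusted p = 0.0344). Tubulin genes are near copies of one another, so the split of reads between them is uncertain. Of the tubulin list 20.8% rose and 8.33% fell, against 5.52% and 4.95% of all genes. Dync1i1, the neuronal intermediate chain of dynein, which carries cargo back to the cell body (chromosome 6, 5725639 to 6028039), had 1.42 and 1.44 FPKM at E18 and 19.1 and 12 FPKM at P5, 10.9-fold higher (log2 difference 2.73, SE 0.21, adjusted p = 0.00535). Of 34 motor and transport genes 4 rose (11.8%, against 5.52% of all genes; 0, 1, 1 and 2 with 1 library left out), among them Kif5b, a kinesin of outward transport, with 40.0 and 42.3 FPKM at E18 and 59.2 and 58.5 FPKM at P5 (log2 difference 0.51, SE 0.09, adjusted p = 0.0274).

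Signals from RGC axons to glia included a pair of growth factors that rose. The list as a whole was near the background, with 8.70% higher and 4.35% lower, against 5.52% and 4.95% of all genes. Pdgfa, by which RGC axons feed the growth of astrocytes (chromosome 5, 138976014 to 138997370), had 3.60 and 4.38 FPKM at E18 and 24.7 and 26.1 FPKM at P5, 6.36-fold higher (log2 difference 2.41, SE 0.14, adjusted p = 0.00326). Pdgfb had 1.18 and 1.49 FPKM at E18 and 5.26 and 5.50 FPKM at P5 (log2 difference 1.45, SE 0.17, adjusted p = 0.0113). Without its P5 values Pdgfb would not have reached the mean of 1 FPKM. Of 23 tested signals 2 rose and 1, Vegfa (above), fell (1, 1, 0 and 2 rose with 1 library left out). The Pdgfa groups were separated by a wide gap, and the libraries of each age agreed closely.

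Survival and stress genes gave a mixed picture at the age when many RGCs die. Of 19 tested genes of neurotrophin and cytokine reception 5 fell and 3 rose (0, 1, 0 and 4 fell with 1 library left out). Ngfr, the neurotrophin receptor p75 that can signal death, had 16.8 and 20.3 FPKM at E18 and 5.87 and 5.41 FPKM at P5 (log2 difference -1.55, SE 0.15, adjusted p = 0.00772). Socs3, a brake on cytokine signaling and axon growth, had 15.6 and 17.3 FPKM at E18 and 3.0 and 3.23 FPKM at P5 (log2 difference -2.08, SE 0.14, adjusted p = 0.00405). Cntfr, a cytokine receptor, had 11.3 and 10.1 FPKM at E18 and 3.52 and 5.60 FPKM at P5 (log2 difference -1.10, SE 0.20, adjusted p = 0.0262). Igf1r had 18.1 and 15.7 FPKM at E18 and 6.70 and 9.82 FPKM at P5 (log2 difference -0.97, SE 0.18, adjusted p = 0.0293). Ntrk2, the BDNF receptor of RGCs, had 26.8 and 32.6 FPKM at E18 and 37.4 and 35.8 FPKM at P5 and did not pass the test. Of this receptor list 26.3% fell and 15.8% rose, against 4.95% and 5.52% of all genes.

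Few genes of cell death moved. Of 21 tested pro-apoptotic genes 1 rose and 1 fell, Casp2, with 28 and 28 FPKM at E18 and 10.9 and 16.6 FPKM at P5. That share is close to the 10.5% called among all genes, and with 1 library left out 0, 0, 0 and 1 gene of the list was called. Bax, which is needed for developmental death of RGCs, had 39.2 and 41.4 FPKM at E18 and 34.5 and 37.4 FPKM at P5 and did not pass the test. Hspb1, a small heat shock protein counted here as anti-apoptotic, rose, with 3.26 and 2.64 FPKM at E18 and 51.8 and 23.2 FPKM at P5 (log2 difference 3.18, SE 0.35, adjusted p = 0.00978), and its P5 libraries differed from each other.

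Some genes of the integrated stress response fell. Atf4, its central factor, had 206 and 204 FPKM at E18 and 127 and 121 FPKM at P5 (log2 difference -0.73, SE 0.10, adjusted p = 0.015), and its target Ddit3 had 20.3 and 19.3 FPKM at E18 and 9.12 and 7.55 FPKM at P5 (log2 difference -1.16, SE 0.13, adjusted p = 0.00958). Of 26 tested genes 6 fell and none rose, and the median of the list was -0.08, or 0.08 with TPM (0, 0, 0 and 2 fell with 1 library left out; with TPM 5 fell and 2 rose). Of 18 tested immediate early genes 1 rose and 2 fell (5.56% and 11.1%, against 5.52% and 4.95% of all genes). Their median difference was -0.12. The immediate early genes Junb and Dusp1 differed by -1.13 and -1.39 and Npas4, which answers to neuronal activity, by 0.95.

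**Figure D5:**
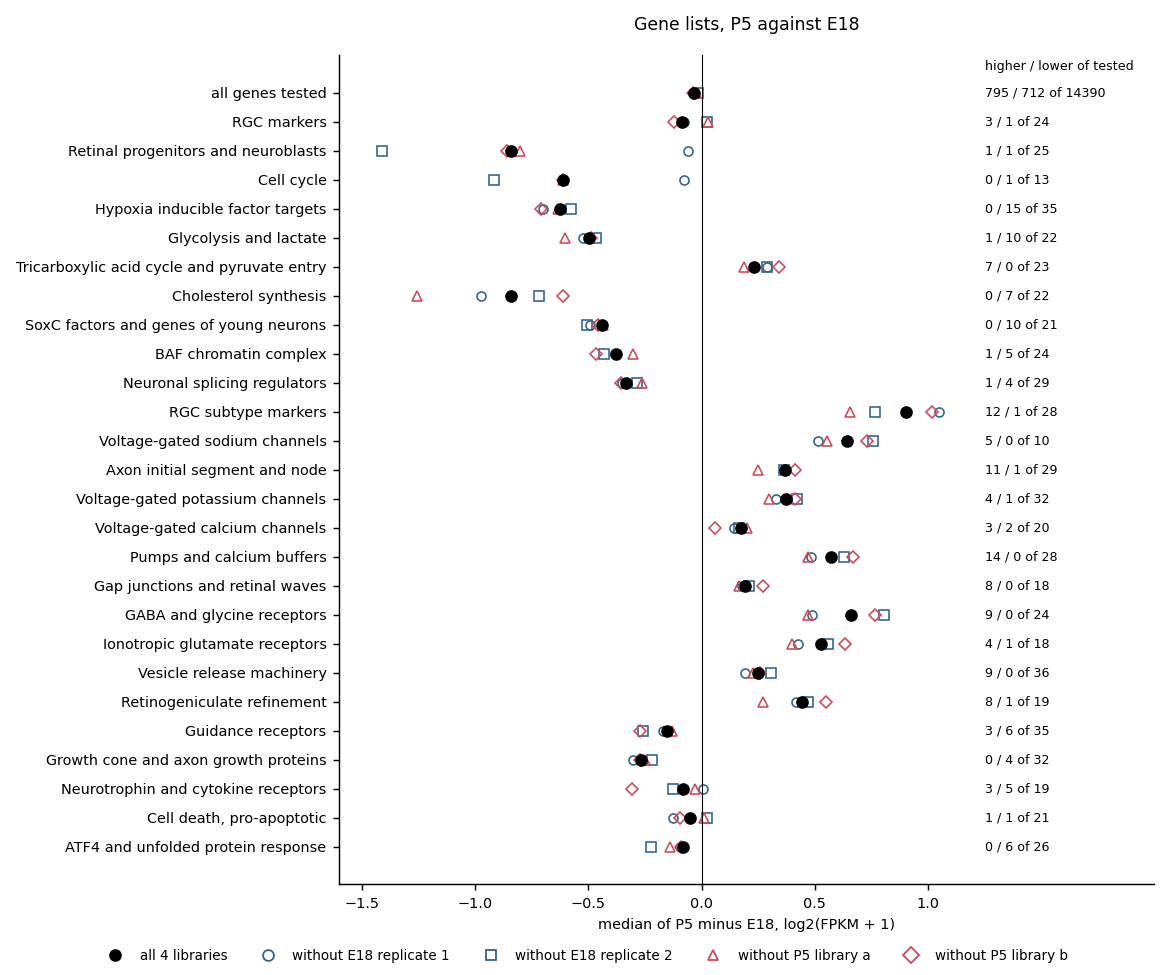
Median difference between P5 and E18 in log2(FPKM + 1) for 26 gene lists, with all 4 libraries (filled circles) and with each library left out in turn (open symbols); the line at 0 marks no difference, and the numbers at the right give members called higher and lower of those tested. Inhibitory receptors, sodium channels and subtype markers lie above 0 in every fit, HIF targets, glycolysis, cholesterol synthesis and young-neuron genes lie below it, and the progenitor and cell cycle lists move to near 0 without E18 replicate 1.

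The largest single changes by the naming rule fell partly outside these lists. Among the 15 largest rises Sparcl1, a secreted matrix protein that promotes synapses, had 7.38 and 5.89 FPKM at E18 and 75.5 and 55.9 FPKM at P5 (log2 difference 3.12, SE 0.17, adjusted p = 0.00326). Mgll, which breaks down an endocannabinoid, had 8.53 and 10.4 FPKM at E18 and 56.0 and 41.3 FPKM at P5 (log2 difference 2.24, SE 0.20, adjusted p = 0.00682). Lgals1, a galectin, had 4.64 and 3.81 FPKM at E18 and 47.6 and 19.4 FPKM at P5 (log2 difference 2.60, SE 0.39, adjusted p = 0.0186). Glia also express genes of this kind. Of 14 tested markers of Muller glia, Clu rose (14.5 and 18.3 FPKM at E18 and 33.1 and 25.4 FPKM at P5) and Vim fell (48.7 and 43.4 FPKM at E18 and 24.5 and 22.0 FPKM at P5), Aqp4 was under 0.1 FPKM in all 4 libraries, and the sum of the list was 301 and 263 FPKM at E18 and 238 and 247 FPKM at P5. None of 5 tested astrocyte markers was called, and their sum was 14.1 and 12.9 FPKM at E18 and 26.6 and 15.1 FPKM at P5. The part of glia in these rises was not tested. Ctxn3, Nrip3 and Tusc5 differed by 2.74, 2.23 and 2.23. Malat1, a nuclear long noncoding RNA, was listed at 0 in both E18 libraries and had 1272 and 1545 FPKM at P5, so no fold is given. It is 1 of 111 tested genes listed at 0 in both E18 libraries, and 122 were listed at 0 in both P5 libraries.

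Histone genes made up 9 of the 15 largest falls, the others being the lactate and glucose transporters Slc16a3 and Slc2a1, Cdkn1c, Fam60a, Dapl1, and BX000537.1, which had 125 and 133 FPKM at E18 and was listed at 0 in both P5 libraries. Hist1h2bn had 41.4 and 12.6 FPKM at E18 and 2.07 and 2.67 FPKM at P5 (log2 difference -2.84, SE 0.48, adjusted p = 0.0235). Hist1h1a, a linker histone, had 85.4 and 48.8 FPKM at E18 and 15.9 and 12.1 FPKM at P5 (log2 difference -2.14, SE 0.27, adjusted p = 0.013). Hist1h3a had 39.5 and 23.0 FPKM at E18 and 5.19 and 4.91 FPKM at P5 (log2 difference -2.36, SE 0.24, adjusted p = 0.00927). Over all 59 tested genes with Hist symbols, a set chosen after the values were seen, 36 fell and none rose, and 54 were higher in E18 replicate 1 than in replicate 2. Their median difference was -1.36, and -1.01 without E18 replicate 1, and their summed level was 2168 and 1498 FPKM at E18 and 763 and 810 FPKM at P5. These genes make histones for DNA replication, most of their transcripts lack a polyA tail, and they are near copies of one another, so their level in polyA-selected RNA is uncertain. The excess of replicate 1 in them moves with that of the progenitor and cell cycle markers, whose part in it was not tested.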

How the data were processed

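The deposited isoform FPKM were made by the authors with HISAT2, Cufflinks and Cuffdiff on mm10, per the submitters' processing notes, from paired 100 bp reads of polyA-selected RNA, with versions not given in the sources used here. A value of 0.0001 stands in place of 0 in the deposited FPKM and was set to 0, and 10 columns of per-sample values were not used. Both P5 columns carry the same header, so their libraries are called a and b in file order and are not numbered replicates. Each gene symbol was given the sum of its isoforms, and genes with a mean of at least 1 FPKM over the 6 libraries were tested on log2(FPKM + 1) by limma (version 3.58.1, with R 4.3.3; moderated by eBayes with a trend, two-sided) and Benjamini-Hochberg adjustment over all tested genes, called under 0.05. All 3 ages shared 1 estimate of the spread. FPKM hold no counts, so depth, counting intervals and floors are not given. Alternatives changed the pseudocount, the filter, the libraries in the fit, the trend, the scaling and the isoforms summed. The members and lists were chosen with earlier results of these data known. Named genes are the 15 largest rises and 15 largest falls among called genes with a group mean of at least 10 FPKM, and in each list the key members, those with the smallest p and those with the highest level. Promoters and positions came from RefSeq (GRCm38.p6) and GENCODE (release M21). Results for some genes are not reported here.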

Additional observations from a re-analysis of the deposited data

How the results depend on the processing

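No paired analysis was possible because the P5 columns carry no replicate numbers. The counts of 795 genes higher and 712 lower at P5 became 398 and 298 with only the 4 libraries of E18 and P5, and 1479 and 468 with TPM, whose median over all genes lay at 0.07 against -0.03; the other settings with all libraries stayed within 1.5 times. With 1 library of any age left out, 7 to 368 genes were higher and 3 to 275 lower; where an age is left with 1 library, that library is assumed to vary like the others. For isoforms, 281 were higher and 288 lower. A pseudocount of 0.1 gave 182 and 149, only the 4 libraries gave 3 and 2, TPM gave 655 higher, and leaving out 1 library gave 2 to 15 higher and 0 to 4 lower. Of the 143 called genes named in the text, 95 were called and 48 were not in the gene fit with only the 4 libraries of E18 and P5. None of the called genes named in the text changed direction under any setting in which it was tested. For the fits without 1 library this follows from groups that do not overlap. Of the named genes that were not called, these changed direction, with the lowest and highest log2 difference over the fits without 1 library: Chrnb2 -0.035 to 0.18, Foxp2 -0.41 to 0.0071, Gad1 -1.90 to 0.66, Pax6 -0.21 to 0.045, Rbpms -0.0045 to 0.13, Slc12a2 -0.055 to 0.34, Slc2a3 -0.035 to 0.38, Sox2 -4.01 to 0.068, Thra -0.021 to 0.13 and Top2a -3.01 to 0.21. Pax6 was also at 0.052 with TPM and 0.058 with quantile normalization. For Gad1, Sox2 and Top2a the highest value is that without E18 replicate 1.

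The depth behind each value is unknown, and changes of genes near 0 are understated on the log2(FPKM + 1) scale. Whether a gene listed at 0 was a failed estimate was not tested. Age, dissection and library preparation cannot be told apart beyond the labels.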

Other observations

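Hormone targets moved in part. Thyroid hormone genes were 23.5% higher and 5.88% lower and glucocorticoid targets 20% and 6.67%, against 5.52% and 4.95% of all genes. The list medians were 0.04 and -0.01, close to the -0.03 of all genes. Of 17 tested genes of the thyroid hormone response, which matures neurons after birth, 4 rose and 1 fell (0, 1, 0 and 4 rose with 1 library left out). Klf9, a target that restrains axon growth, had 3.41 and 2.36 FPKM at E18 and 9.78 and 7.87 FPKM at P5 (log2 difference 1.35, SE 0.18, adjusted p = 0.0132). Camk4, a calcium-dependent kinase, had 6.21 and 6.84 FPKM at E18 and 26.8 and 27.3 FPKM at P5 (log2 difference 1.90, SE 0.14, adjusted p = 0.00463). The receptor Thrb had 0.554 and 0.179 FPKM at E18 and 3.15 and 1.56 FPKM at P5 (log2 difference 1.27, SE 0.27, adjusted p = 0.0379), while Thra, the far more abundant receptor, had 311 and 323 FPKM at E18 and 312 and 346 FPKM at P5 and did not pass the test. Rcor2, a corepressor of young neurons, fell, with 30.9 and 31.0 FPKM at E18 and 12.7 and 14.4 FPKM at P5 (log2 difference -1.14, SE 0.12, adjusted p = 0.00964). Of 15 tested glucocorticoid targets 3 rose and 1 fell (0, 0, 0 and 1 rose with 1 library left out), the rises being Klf9 again, Cdkn1a, a cell cycle inhibitor, with 8.70 and 10.2 FPKM at E18 and 21.1 and 19.3 FPKM at P5, and the metallothionein Mt2, with 1.15 and 0.931 FPKM at E18 and 3.81 and 4.47 FPKM at P5.

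Over all genes 5.52% rose and 4.95% fell, the background for the next 3 lists. Of 23 tested imprinted genes 4 rose and 2 fell (0, 0, 0 and 1 rose with 1 library left out), Cdkn1c among the falls. Nap1l5 had 55.1 and 57.2 FPKM at E18 and 113 and 117 FPKM at P5 (log2 difference 1.02, SE 0.10, adjusted p = 0.00927). Nnat, a small membrane protein of young neurons, was the other that fell, with 1317 and 1178 FPKM at E18 and 804 and 872 FPKM at P5 (log2 difference -0.57, SE 0.12, adjusted p = 0.034). Of 15 tested long noncoding RNAs 5 fell and 1, Malat1, rose (0, 1, 0 and 2 fell with 1 library left out). Six3os1, an antisense transcript of an eye field gene, fell, with 103 and 125 FPKM at E18 and 58.2 and 46.3 FPKM at P5 (log2 difference -1.11, SE 0.18, adjusted p = 0.022). Snhg1, a host of small nucleolar RNAs, had 81.6 and 79.4 FPKM at E18 and 43.2 and 46.2 FPKM at P5 (log2 difference -0.84, SE 0.10, adjusted p = 0.0107). Of 18 clock genes 1 rose and 2 fell, and none was called with 1 library left out. Nr1d1, a repressor of the clock, had 11.7 and 11.1 FPKM at E18 and 4.81 and 6.35 FPKM at P5 (log2 difference -0.92, SE 0.18, adjusted p = 0.0305).

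Of 16 tested filament and spectrin genes 2 rose and 2 fell (0, 0, 0 and 1 rose with 1 library left out). Ina, the filament protein of young axons, fell, with 318 and 303 FPKM at E18 and 166 and 182 FPKM at P5 (log2 difference -0.83, SE 0.11, adjusted p = 0.0131), in contrast to Nefh. Of 36 adhesion molecules of axons 6 rose and 1 fell (0, 1, 0 and 4 rose with 1 library left out). Itgb1, an integrin that binds laminin, rose, with 33.9 and 32.6 FPKM at E18 and 64.3 and 62.5 FPKM at P5 (log2 difference 0.91, SE 0.10, adjusted p = 0.00958). Cdh8, a cadherin, rose, with 4.84 and 4.05 FPKM at E18 and 11.5 and 10.7 FPKM at P5 (log2 difference 1.15, SE 0.13, adjusted p = 0.0102). Cdh2, N-cadherin, was the one that fell, with 73.0 and 76.5 FPKM at E18 and 52.0 and 54.2 FPKM at P5 (log2 difference -0.49, SE 0.10, adjusted p = 0.0335). Filament and spectrin genes were 12.5% higher and 12.5% lower, and adhesion molecules 16.7% and 2.78%, against 5.52% and 4.95% of all genes. The P5 libraries were at least 1 log2 apart in 163 genes (1.13% of those tested).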
